A study of Homo sapiens with 6 samples.

Results

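Complex I, the NADH:ubiquinone oxidoreductase of the mitochondrial inner membrane, is built from subunits encoded in the nucleus and subunits encoded in mitochondrial DNA. The genes described here were taken by symbol: NDUFA, NDUFB, NDUFC, NDUFS or NDUFV followed by a number, NDUFAB1, and every gene whose symbol begins with MT-ND. The rule used no measured value and found 45 of the 20474 annotated genes in the tables, 38 nuclear and 7 mitochondrial, of which 37 nuclear and all 7 mitochondrial genes are described here. Every count, median and sum of members below covers those genes. The rule takes in NDUFA4, which was named as a complex I subunit and is now assigned to cytochrome c oxidase.

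The enzyme is L-shaped. Its matrix arm takes electrons from NADH through a flavin and a chain of iron-sulfur clusters to ubiquinone, and its membrane arm pumps protons. The conserved core of the matrix arm is encoded in the nucleus, the hydrophobic core of the membrane arm is encoded in mitochondrial DNA, and nuclear accessory subunits surround both. Mitochondrial mRNAs are cut from long transcripts that cover each strand of the circular genome, so their levels are set by processing and stability as well as by transcription, whereas each nuclear subunit has its own promoter.

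Conditions were compared in HCT116, a human colorectal cancer cell line: cells transfected with an siRNA against POU2F1, labelled as POU2F1 knockdown (siPOU2F1), and cells that received a non-targeting siRNA, labelled WT (sicontrol). POU2F1 encodes OCT1, a transcription factor that binds the octamer DNA motif. RNA was taken at 48 h and each group held 3 polyA libraries. No label says that the libraries are from separate cultures. The p-values therefore describe the spread among these libraries alone, and that spread may be technical. The design holds a single cell line and a transient knockdown.

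Values are FPKM as the authors deposited them, fragments per kilobase of transcript scaled to each library's mapped fragments. They are divided by length, but differences between genes in capture or read assignment are not removed. Levels set side by side between genes are therefore comparisons of FPKM only. Each fold change is siPOU2F1 minus sicontrol on the log2(FPKM + 0.5) scale, with its standard error (SE) from limma, and a gene was called at a Benjamini-Hochberg adjusted p under 0.05 over the 11831 genes that averaged at least 1 FPKM. FPKM are shares of a library, and in bulk RNA fewer cells with a transcript and less of it per cell cannot be told apart.

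POU2F1 itself stood at 1.87, 1.69 and 1.73 FPKM in the siPOU2F1 libraries, against 4.16, 3.60 and 4.26 FPKM in the sicontrol libraries. It fell to 44.0% of the control mean, a log2 difference of -0.99 (limma, SE 0.14, adjusted p = 0.0333). Leaving out any single library other than siPOU2F1 replicate 3 put its adjusted p between 0.114 and 0.220, and leaving out siPOU2F1 replicate 3 gave 0.00982. A two-sided exact permutation test gave p = 0.1, the smallest that 3 against 3 allows. Between 11670.0 and 11853 genes per library reached 1 FPKM. The library of siPOU2F1 replicate 3 stood apart from its group: over the tested genes its Pearson correlation was 0.946 with siPOU2F1 replicate 1 and 0.948 with replicate 2, but 0.977 with sicontrol replicate 2. Between siPOU2F1 replicates 1 and 2 it was 0.989. Its POU2F1 level lay between those of the other knockdown libraries. Where a gene or list named below gains or loses a call without that library, its value without it is given too. Of 12 markers of colorectal epithelium 7 averaged at least 1 FPKM, and their summed level over the list was 3740.3 to 5166 FPKM in siPOU2F1 libraries and 2705 to 3628 FPKM in sicontrol libraries, without overlap and with none of the markers called. Most of these sums lay in keratins: KRT18 averaged 2023 FPKM in siPOU2F1 and 1373 FPKM in sicontrol, KRT8 1684 and 857, and KRT19 680 and 591. EPCAM, at 215 FPKM in siPOU2F1 and 213 FPKM in sicontrol, and CDH1 differed little. VIL1 averaged 4.22 FPKM in siPOU2F1 and 1.96 FPKM in sicontrol, and CDX2 5.10 and 4.33. Among the markers under 1 FPKM, KRT20 and LGALS4 were lower in siPOU2F1, and CEACAM5, CDX1 and TFF3 were higher. The part of the summed difference in the results below was not tested. Markers of fibroblasts summed to 1.88 to 3.69 FPKM in siPOU2F1 and 2.17 to 2.72 FPKM in sicontrol, leukocyte markers to 1.42 to 1.61 FPKM in siPOU2F1 and 0.923 to 1.63 FPKM in sicontrol, and endothelial markers to 0.597 to 0.708 FPKM in siPOU2F1 and 0.666 to 0.954 FPKM in sicontrol. DCN, COL3A1 and PTPRC were listed at 0 in every library.

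None of the complex I subunits described here passed the test with all 6 libraries. Among the 36 tested nuclear members 0 had an adjusted p under 0.05 in limma and 7 (19.4%) had an unadjusted p under 0.05, close to the 18.1% of all tested genes that did. Among the 7 mitochondrial members both counts were 0. Across all tested genes 1.24% were called in either direction and 0.397% were called higher in siPOU2F1. The nuclear subunits had positive fold changes in 25 of 36 cases (69.4%), against 48.5% of all tested genes. Their median log2 fold change was 0.11 against -0.01. By library, their median deviation from the sicontrol mean overlapped between the groups. It was 0.138, 0.179 and 0.035 in siPOU2F1 and 0.017, -0.107 and 0.062 in sicontrol. In 9 nuclear members every siPOU2F1 library lay above every sicontrol library, where 11.3% of all tested genes did so, and in 1 member every siPOU2F1 library lay below, where 12.0% of all tested genes did so. Most differences were small: 21 of 36 nuclear members had an absolute log2 fold change under 0.25. The mitochondrial subunits had a median of 0.04, with 4 positive and 3 negative fold changes, and all 7 overlapped between the groups.

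**Figure D1:**
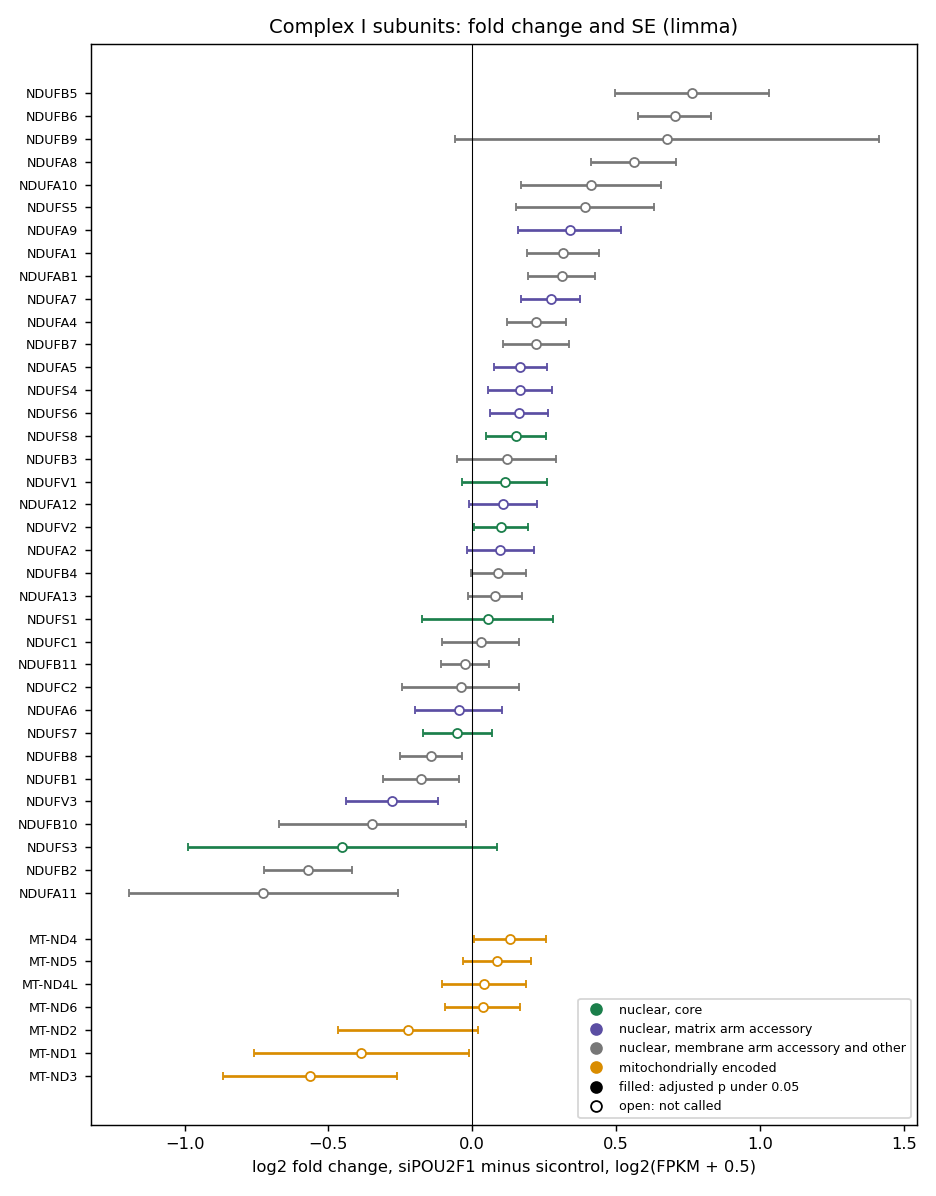
Log2 fold change (siPOU2F1 minus sicontrol, on the log2(FPKM + 0.5) scale) of 43 tested complex I subunits with the limma standard error, nuclear and mitochondrial members marked separately. All points are open, meaning not called. The nuclear members run from -0.73 for NDUFA11 to 0.76 for NDUFB5, and the mitochondrial members run between -0.56 and 0.13.

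The core subunits described at the quinone end of the matrix arm, NDUFS7, NDUFS8 and NDUFS3, did not pass the test. NDUFS7, which carries the iron-sulfur cluster next to ubiquinone, had 32.3, 34.3 and 30.2 FPKM in siPOU2F1 and 35.6, 29.2 and 36.0 FPKM in sicontrol, with overlapping groups (log2 fold change -0.05, adjusted p = 0.823). NDUFS8, a ferredoxin-like subunit, had 68.0, 73.2 and 66.6 FPKM in siPOU2F1 against 64.8, 56.2 and 66.1 FPKM in sicontrol. Its groups did not overlap, although the nearest libraries lay almost together (0.15, adjusted p = 0.443). NDUFS3, also in the quinone module, varied by more than its group difference. It had 15.6, 25.7 and 5.71 FPKM in siPOU2F1 and 11.2, 23.1 and 23.8 FPKM in sicontrol, with its lowest value in siPOU2F1 replicate 3. Its log2 fold change was -0.45 (SE 0.54, adjusted p = 0.655) with all libraries and 0.12 without that one. NDUFS3 shares 19.6% of its exonic bases with PTPMT1 on the same strand, and the assignment of reads there is not stated by any source used here.

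In the NADH-oxidising tip no member described passed the test with all 6 libraries. NDUFV1, which binds NADH and the flavin, had 107, 111 and 83.2 FPKM in siPOU2F1 and 93.1, 80.8 and 103 FPKM in sicontrol (log2 fold change 0.11, adjusted p = 0.684). NDUFV2, which carries an iron-sulfur cluster beside it, had the highest mean FPKM of the nuclear members. It had 140.3, 146 and 133 FPKM in siPOU2F1 and 137, 121 and 133 FPKM in sicontrol (0.10, adjusted p = 0.572). NDUFS1, the largest matrix-arm subunit, had 10.0, 18.1 and 11.8 FPKM in siPOU2F1 and 13.3, 13.8 and 10.5 FPKM in sicontrol (0.05, adjusted p = 0.911). In all 3 the groups overlapped. Within this tip the FPKM were unequal, NDUFS1 being far below NDUFV1 and NDUFV2 in every library. The NADH-tip accessory subunit NDUFV3 had 6.57, 6.57 and 9.26 FPKM in siPOU2F1 and 9.11, 9.47 and 8.62 FPKM in sicontrol. Its first and second knockdown libraries lay below all controls and the third lay among them (-0.28, SE 0.16, adjusted p = 0.374).

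Among the members described, accessory subunits of the membrane arm held the largest differences in which the groups did not overlap. NDUFB6 (chromosome 9, 32552999 to 32573184, minus strand) had 20.4, 20.0 and 16.9 FPKM in siPOU2F1 and 12.5, 10.4 and 11.7 FPKM in sicontrol. Every knockdown library lay above every control library, with means of 19.1 ± 1.95 FPKM in siPOU2F1 and 11.5 ± 1.05 FPKM in sicontrol (SD, n = 3 each). The log2 fold change was 0.70 (SE 0.13, adjusted p = 0.0594), so it missed the threshold. NDUFA8 (chromosome 9, 122144058 to 122159819, minus strand), a subunit on the intermembrane-space face of the arm, had 85.9, 85.3 and 66.8 FPKM in siPOU2F1 against 51.6, 47.3 and 61.9 FPKM in sicontrol. Again the groups did not overlap, with siPOU2F1 replicate 3 nearest the controls (0.56, SE 0.15, adjusted p = 0.130). NDUFB5, a membrane-spanning subunit, had 43.0, 94.6 and 70.6 FPKM in siPOU2F1 and 35.2, 40.7 and 40.4 FPKM in sicontrol. Its knockdown libraries were all higher but differed among themselves by more than the controls did (0.76, SE 0.27, adjusted p = 0.207).

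NDUFB2, a small membrane-arm subunit, was the member with the opposite separation. It had 44.3, 45.9 and 62.0 FPKM in siPOU2F1 and 81.5, 68.0 and 75.1 FPKM in sicontrol, with every knockdown library below every control library. The means were 50.7 ± 9.80 FPKM in siPOU2F1 and 74.9 ± 6.78 FPKM in sicontrol (SD, n = 3 each), and the log2 fold change was -0.57 (SE 0.15, adjusted p = 0.132). NDUFB2 (chromosome 7, 140690777 to 140722790, plus strand) shares 27.9% of its exonic bases with BRAF on the opposite strand. BRAF averaged 8.29 FPKM in siPOU2F1 and 8.79 FPKM in sicontrol, far below NDUFB2. The kit keeps strand, but no source used here states the strand setting of the counting.

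**Figure D2:**
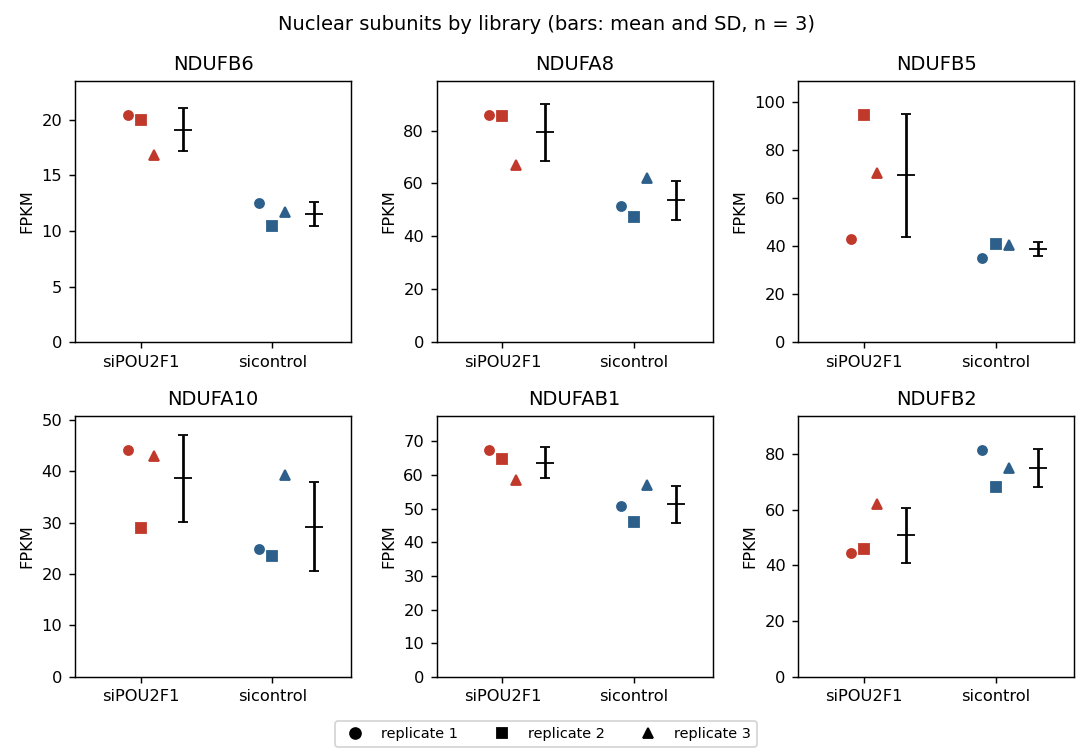
FPKM of 6 nuclear complex I subunits in each library, siPOU2F1 to the left of sicontrol, with the mean and SD of each group (n = 3). The siPOU2F1 points of NDUFB6 and NDUFA8 lie above all their sicontrol points, and those of NDUFB2 lie below.

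The siPOU2F1 replicate 3 library bears directly on these genes. Without it limma called 25.0% of all tested genes, and among the nuclear members it called 4: NDUFB6 and NDUFA8 higher, and NDUFB2 and NDUFV3 lower. Without it the log2 fold changes were 0.79 for NDUFB6 (adjusted p = 0.00973), 0.68 for NDUFA8 (adjusted p = 0.0160), -0.72 for NDUFB2 (adjusted p = 0.00982) and -0.43 for NDUFV3 (adjusted p = 0.0335). A count of 4 in 36 is below that background share. When limma weighted each library by how well it fitted, siPOU2F1 replicate 3 received a weight of 0.145 against up to 3.82 for the others, and 50.4% of all tested genes were called, with 16 nuclear members (12 higher, 4 lower) and 3 mitochondrial members (1 higher, 2 lower). Why that library stands apart was not tested.

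The subunits are given here by group, with those already described included in the counts and medians. Of the 9 accessory subunits of the matrix arm 7 had positive fold changes, with a median of 0.16. Of the 20 accessory subunits of the membrane arm 19 were tested, 12 positive and 7 negative, with a median of 0.09. The 6 nuclear core subunits described had a median of 0.08 with 4 positive. NDUFAB1, present in both arms, and NDUFA4 were counted in none of these groups. Besides those described, NDUFA1, NDUFAB1, NDUFA7, NDUFA4 and NDUFA5 had knockdown libraries that all lay above the controls, and they are named here because of those values. Their log2 fold changes ran from 0.17 to 0.32 and none passed the test. NDUFAB1, which is also the mitochondrial acyl carrier protein of fatty acid synthesis, had 67.5, 64.8 and 58.5 FPKM in siPOU2F1 against 50.8, 46.0 and 57.0 FPKM in sicontrol (0.31, adjusted p = 0.230). NDUFA10, a membrane-arm subunit on the matrix side, had 44.2, 28.9 and 42.9 FPKM in siPOU2F1 and 24.9, 23.5 and 39.3 FPKM in sicontrol. Its groups overlapped (0.41, SE 0.24, adjusted p = 0.388).

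Promoter sequences are shown for the 3 members that separated the groups by the most and have an entry in the RefSeq table (GRCh38.p14), running from 250 bases before to 50 after the annotated start, 5′ to 3′ on the gene's strand. NDUFB6 and NDUFA8 were higher in siPOU2F1 and NDUFB2 was lower. Capitals mark matches to the motifs searched, which of these 3 only NDUFA8 holds.
NDUFB6, chr9:32573110-32573409, minus strand: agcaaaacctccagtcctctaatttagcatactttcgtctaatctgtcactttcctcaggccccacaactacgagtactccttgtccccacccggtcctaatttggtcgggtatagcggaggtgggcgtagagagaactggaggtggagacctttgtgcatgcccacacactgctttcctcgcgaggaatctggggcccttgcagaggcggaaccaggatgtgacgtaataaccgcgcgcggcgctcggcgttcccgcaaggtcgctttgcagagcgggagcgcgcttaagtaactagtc
NDUFA8, chr9:122159730-122160029, minus strand: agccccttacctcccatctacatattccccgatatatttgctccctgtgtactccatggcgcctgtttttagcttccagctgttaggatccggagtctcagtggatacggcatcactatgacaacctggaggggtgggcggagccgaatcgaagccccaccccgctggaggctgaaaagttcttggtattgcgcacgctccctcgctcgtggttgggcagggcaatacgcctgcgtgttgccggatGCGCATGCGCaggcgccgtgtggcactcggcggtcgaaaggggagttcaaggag
NDUFB2, chr7:140696458-140696757, plus strand: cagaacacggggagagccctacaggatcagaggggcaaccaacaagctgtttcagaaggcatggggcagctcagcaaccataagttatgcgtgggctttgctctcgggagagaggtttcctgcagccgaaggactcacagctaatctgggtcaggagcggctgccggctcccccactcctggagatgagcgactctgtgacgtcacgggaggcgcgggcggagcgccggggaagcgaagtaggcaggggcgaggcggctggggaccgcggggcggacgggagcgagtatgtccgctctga

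The capitals in NDUFA8 span bases 247 to 256 and hold the NRF1 motif GCGCATGCG on either strand, the matches overlapping. The table matched 32 of the 37 nuclear members, and NDUFA4, NDUFB5, NDUFB9, NDUFC2 and NDUFS5 had no entry. The octamer ATTTGCAT was in the promoters of 0 of 32 members and of 2.19% of the 27305 genes in the table. It was searched on both strands, like every motif here. The NRF1 motif was in 15.6% of member promoters (NDUFA5, NDUFA8, NDUFB4, NDUFS6 and NDUFS7) and in 2.34% of all. The YY1 motif AAGATGGCG was in 18.8% of member promoters and 2.14% of all, and the ETS motif CCGGAAG in 15.6% of member promoters and 12.2% of all. These are matches of letters in a fixed window and say nothing of binding.

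Some nuclear members differed between groups through a single library. NDUFB9 had 39.7, 33.8 and 47.5 FPKM in siPOU2F1 and 41.7, 6.26 and 56.2 FPKM in sicontrol. Its positive log2 fold change of 0.68 (SE 0.74, adjusted p = 0.623) rested on sicontrol replicate 2 and was -0.27 without it. NDUFA11, a membrane-arm subunit near the contact with other respiratory complexes, had 28.8, 8.35 and 32.7 FPKM in siPOU2F1 and 33.7, 32.2 and 34.4 FPKM in sicontrol, the low value being in siPOU2F1 replicate 2 (-0.73, SE 0.47, adjusted p = 0.420). NDUFB10, a cysteine-rich membrane-arm subunit, had 21.8, 19.7 and 8.72 FPKM in siPOU2F1 and 22.2, 17.7 and 20.2 FPKM in sicontrol. Its log2 fold change was -0.35 (SE 0.33, adjusted p = 0.567) and 0.05 without siPOU2F1 replicate 3. NDUFA3 averaged under 1 FPKM and was not tested, with 0.184, 1.10 and 0.739 FPKM in siPOU2F1 and 1.76, 0.194 and 0.428 FPKM in sicontrol. The ratio of the highest to the lowest library was under 1.5 in 21 of 37 nuclear members and at least 3 in 4 of them, NDUFA3, NDUFB9, NDUFS3 and NDUFA11. Of the 37 nuclear members, 17 share exonic bases with another gene in the tables and 18 have annotated pseudogene copies, so reads may have been divided.

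**Figure D3:**
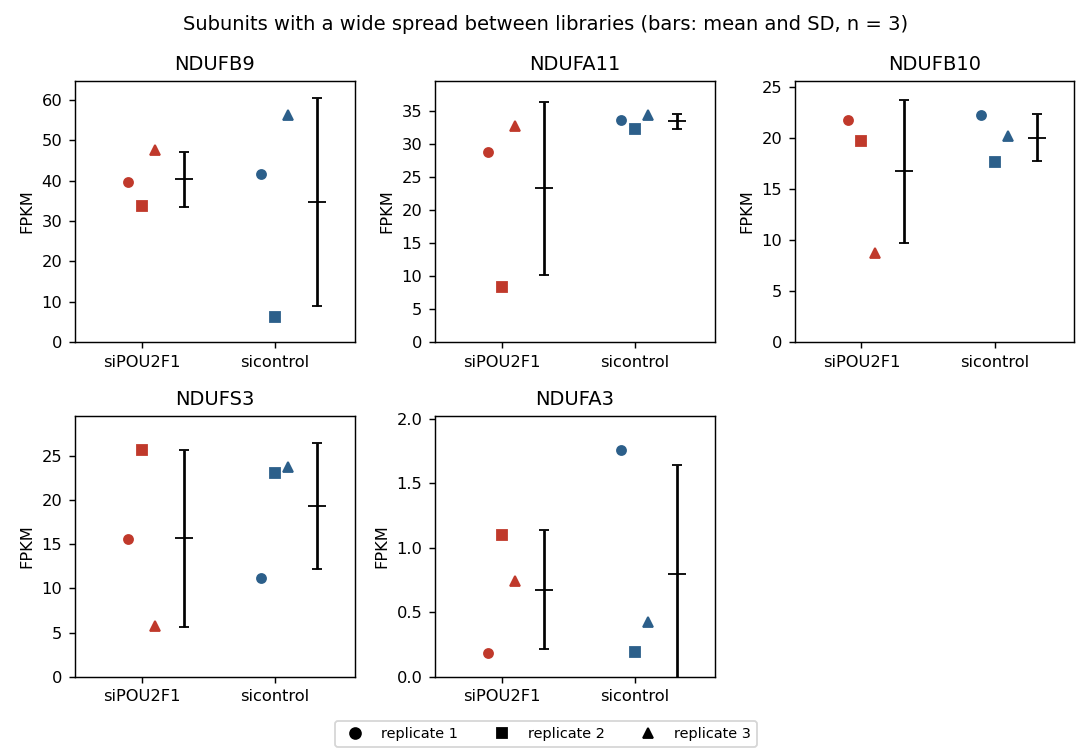
FPKM by library, siPOU2F1 left of sicontrol with group means and SD, for the nuclear members with a wide spread between libraries. The low points are 6.26 FPKM for NDUFB9 in sicontrol, 8.35 FPKM for NDUFA11 in siPOU2F1, and 5.71 and 8.72 FPKM for NDUFS3 and NDUFB10 in siPOU2F1 replicate 3.

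The mitochondrial members had far higher FPKM. Their means over the 6 libraries ran from 419 FPKM for MT-ND3 to 4911 FPKM for MT-ND4, with a median of 884 FPKM, whereas the nuclear members ran from 0.734 FPKM for NDUFA3 to 135 FPKM for NDUFV2, with a median of 42.8 FPKM. Every mitochondrial member described exceeded every nuclear one. Below MT-ND4 came MT-ND4L, MT-ND2, MT-ND5, MT-ND1, MT-ND6 and MT-ND3, in that order of mean FPKM. How evenly polyA selection captured these mRNAs was not tested. MT-ND6 lies on the minus strand, and no source used here states the strand setting of the counting. Every library put MT-ND4 above MT-ND4L and MT-ND4L above the rest, while the ranges of neighbours from MT-ND2 downward overlapped.

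MT-ND4 and MT-ND4L, subunits of the proton-pumping membrane arm, lie on a single mRNA with overlapping reading frames, and their levels are shown with the overlap for that reason. The last 30 bases of MT-ND4L and the first 30 of MT-ND4 on the plus strand of the mitochondrial genome (GENCODE 29, GRCh38) have the 7 shared bases in capitals.
MT-ND4L, chrM:10737-10766: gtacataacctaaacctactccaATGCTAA
MT-ND4, chrM:10760-10789: ATGCTAAaactaatcgtcccaacaattata

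MT-ND4 had 5594, 5256 and 4552 FPKM in siPOU2F1 and 4446, 4350.1 and 5269 FPKM in sicontrol (log2 fold change 0.13, SE 0.13, adjusted p = 0.574). MT-ND4L had 3447, 3311 and 2750.4 FPKM in siPOU2F1 and 2904, 2732 and 3641 FPKM in sicontrol (0.04, adjusted p = 0.895). The groups overlapped in both. The ratio of MT-ND4L to MT-ND4 was 0.616, 0.630 and 0.604 in siPOU2F1 and 0.653, 0.628 and 0.691 in sicontrol. MT-ND5, another pumping subunit, had 905, 853 and 966 FPKM in siPOU2F1 and 769, 827 and 983 FPKM in sicontrol (0.09, adjusted p = 0.702). MT-ND6, the member on the minus strand, had 499, 479.6 and 510.1 FPKM in siPOU2F1 and 440.3, 440.3 and 583 FPKM in sicontrol (0.04, adjusted p = 0.892). These 4 members thus lay within the spread of the libraries.

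MT-ND1, MT-ND2 and MT-ND3 behaved differently among the knockdown libraries. MT-ND1, at the junction of the arms, had 437, 348 and 935 FPKM in siPOU2F1 and 503, 783 and 807 FPKM in sicontrol. MT-ND3, which lies beside the quinone site, had 289, 240.0 and 502 FPKM in siPOU2F1 and 372, 479 and 632 FPKM in sicontrol. MT-ND2, a pumping subunit, had 718, 689.6 and 1142 FPKM in siPOU2F1 and 751, 989.9 and 1209.8 FPKM in sicontrol. In all 3, siPOU2F1 replicates 1 and 2 lay below every control library and siPOU2F1 replicate 3 lay among or above the controls. With all libraries the log2 fold changes were -0.39 for MT-ND1 (SE 0.37, adjusted p = 0.578), -0.56 for MT-ND3 (SE 0.30, adjusted p = 0.353) and -0.22 for MT-ND2 (adjusted p = 0.626). Without siPOU2F1 replicate 3 they were -0.81 (adjusted p = 0.0424), -0.87 (adjusted p = 0.0322) and -0.46 (adjusted p = 0.121), so MT-ND1 and MT-ND3 were then called, on 2 knockdown libraries and against the 25.0% of all genes called there. The ratio of MT-ND1 to MT-ND4, chosen after the values were seen and not tested, was 0.0781, 0.0662 and 0.205 in siPOU2F1 and 0.113, 0.180 and 0.153 in sicontrol.

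**Figure D4:**
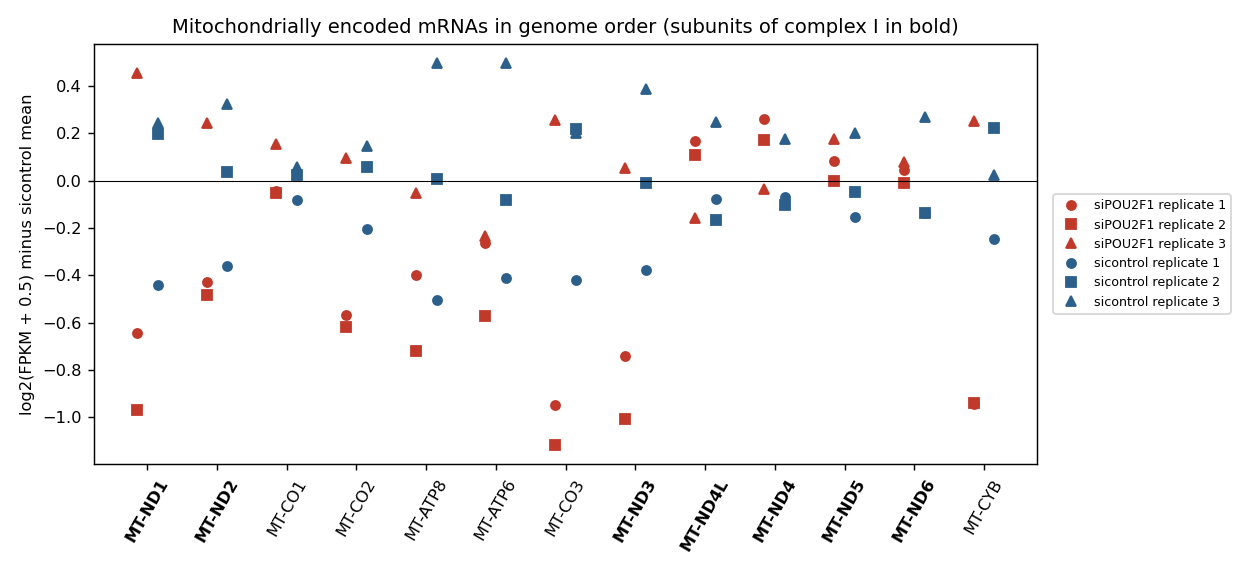
Deviation of each library from the sicontrol mean, on the log2(FPKM + 0.5) scale, for the 13 mitochondrially encoded mRNAs in genome order, siPOU2F1 left of sicontrol and complex I subunits in bold. In MT-ND1, MT-ND2 and MT-ND3 the third siPOU2F1 library sits apart from the first and second, at 935, 1142 and 502 FPKM.

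The other mitochondrial mRNAs, for subunits of the other respiratory complexes and ATP synthase, included genes with the same arrangement, MT-CO3, MT-CYB and MT-CO2. None of 6 was called (limma, 0 with an unadjusted p under 0.05), 5 fold changes were negative and the median was -0.38. MT-CO3, of cytochrome c oxidase, had 905, 806 and 2089 FPKM in siPOU2F1 and 1306, 2034 and 2012 FPKM in sicontrol (-0.60, adjusted p = 0.402). MT-CYB, of the cytochrome bc complex, had 814, 818 and 1869 FPKM in siPOU2F1 and 1322, 1830.3 and 1595 FPKM in sicontrol (-0.54, adjusted p = 0.394). For MT-CO2 the log2 fold change was -0.36 (adjusted p = 0.377). Without siPOU2F1 replicate 3 the median was -0.58, and MT-CO2 (-0.59, adjusted p = 0.0244), MT-CYB (-0.94, adjusted p = 0.0109) and MT-CO3 (-1.03, adjusted p = 0.0185) were called lower. That fit had only siPOU2F1 replicates 1 and 2 for the knockdown and called 25.0% of all tested genes. MT-CO1 differed from them, at 5951, 5921 and 6826 FPKM in siPOU2F1 and 5799, 6243 and 6394 FPKM in sicontrol (0.02), and is named for contrast after its values were seen.

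Summed over members, the FPKM of the genomes were set side by side. The nuclear sum was 1856, 1899 and 1735 FPKM in siPOU2F1 and 1687, 1541 and 1797 FPKM in sicontrol, averaging 1829.7 ± 85.1 FPKM in siPOU2F1 and 1675 ± 128 FPKM in sicontrol. The mitochondrial sum was 11888, 11178 and 11358 FPKM in siPOU2F1 and 10185, 10601 and 13126 FPKM in sicontrol, averaging 11475 ± 369 FPKM in siPOU2F1 and 11304 ± 1592 FPKM in sicontrol (SD, n = 3 each). Both sums overlapped between the groups. The ratio of the mitochondrial to the nuclear sum was 6.41, 5.89 and 6.55 in siPOU2F1 and 6.04, 6.88 and 7.31 in sicontrol, so it too overlapped, with means of 6.28 ± 0.348 in siPOU2F1 and 6.74 ± 0.646 in sicontrol. The mitochondrial members took 2.96%, 2.78% and 2.86% of the FPKM of the siPOU2F1 libraries and 2.61%, 2.72% and 3.25% of the sicontrol libraries. No test was made of these sums. The members of each genome did not move alike, since the nuclear median fold change of 0.11 covers values from -0.73 to 0.76 and the mitochondrial median of 0.04 covers values from -0.56 to 0.13.

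**Figure D5:**
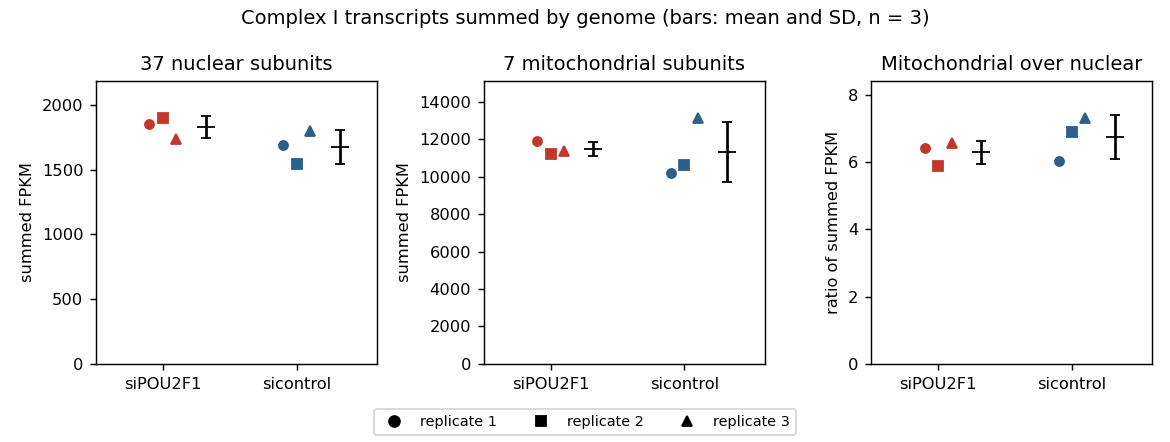
Summed FPKM of the 37 nuclear and of the mitochondrial complex I subunits, and the ratio of the mitochondrial to the nuclear sum, by library with group means and SD, siPOU2F1 left of sicontrol. The groups overlap in all 3 panels, with ratios of 5.89 to 6.55 in siPOU2F1 and 6.04 to 7.31 in sicontrol.

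The genes that assemble complex I or act beside it were described from lists, whose calls depended on siPOU2F1 replicate 3. Their counts are to be read against 18.1% of all tested genes with an unadjusted p under 0.05, and against 25.0% called without that library and 50.4% called with library weights. Of 21 tested assembly factors none was called (limma, 5 with an unadjusted p under 0.05), 7 were positive and 14 negative, and the median log2 fold change was -0.07. Without siPOU2F1 replicate 3 the median was -0.26 and 7 were called (2 higher, 5 lower), and with library weights 13 were called. NDUFAF3, which acts in assembly of the quinone module, had 26.5, 28.9 and 26.9 FPKM in siPOU2F1 and 32.1, 32.5 and 39.1 FPKM in sicontrol. Every knockdown library was lower, without passing the test (-0.32, adjusted p = 0.210). NUBPL, needed for iron-sulfur clusters of the complex, and ACAD9, an acyl-CoA dehydrogenase relative with an assembly role, had log2 fold changes of -0.55 (adjusted p = 0.215) and -0.33 (adjusted p = 0.225). For ACAD9 it was -0.40 (adjusted p = 0.0423) without siPOU2F1 replicate 3.

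Genes of mitochondrial gene expression gave no calls with all 6 libraries. Of 16 tested genes for mitochondrial DNA transcription and replication none was called (limma, 2 with an unadjusted p under 0.05), with a median of -0.09. The lowest p-values belonged to TOP1MT, the mitochondrial topoisomerase (0.51, adjusted p = 0.151), TFB2M, a transcription initiation factor (0.41, adjusted p = 0.194), and MGME1, an exonuclease (-0.52, adjusted p = 0.315). Without siPOU2F1 replicate 3 the median was -0.19 and 4 of the 16 were called (1 higher, 3 lower), among them TOP1MT (0.58, adjusted p = 0.0305) and MGME1 (-0.80, adjusted p = 0.0112). With library weights 8 were called. Of 18 tested genes for mitochondrial RNA processing none was called (2 with an unadjusted p under 0.05), with a median of -0.11. SLIRP, which binds mitochondrial mRNAs and stabilises them with LRPPRC, had 43.8, 42.0 and 43.3 FPKM in siPOU2F1 and 55.8, 49.4 and 59.0 FPKM in sicontrol. Its groups did not overlap (-0.34, adjusted p = 0.163). FASTKD5, an RNA-processing protein, had -0.79 (adjusted p = 0.190) and PNPT1, a polynucleotide phosphorylase, -0.33 (adjusted p = 0.306). Leaving out siPOU2F1 replicate 3, the median was -0.14 and 3 of the 18 were called, all lower, among them FASTKD5 (-1.07, adjusted p = 0.0113) and PNPT1 (-0.48, adjusted p = 0.0236). With library weights 8 were called.

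Of 12 tested nuclear regulators of respiratory genes none was called (limma, 3 with an unadjusted p under 0.05), with 3 positive, 9 negative and a median of -0.07. MYC had 271, 242 and 201 FPKM in siPOU2F1 and 167, 167 and 166 FPKM in sicontrol, all knockdown libraries being higher (0.50, adjusted p = 0.113). GABPB1, a subunit of an ETS-family factor, had -0.90 (adjusted p = 0.194) and CREB1, a cAMP-responsive factor, -0.56 (adjusted p = 0.194). When siPOU2F1 replicate 3 was left out the median of the list was -0.28 and 5 of the 12 were called (1 higher, 4 lower). Among these were MYC (0.62, adjusted p = 0.00956), GABPB1 (-1.25, adjusted p = 0.00788) and CREB1 (-0.65, adjusted p = 0.0480). With library weights 6 were called.

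Enzymes that feed or bypass complex I included a called gene. Of 12 tested genes for alternative NADH oxidation and shuttles GPD2 alone was called with all 6 libraries, lower in siPOU2F1. Across all tested genes 1.24% were called. In the list 2 had an unadjusted p under 0.05 in limma, 5 fold changes were positive and 7 negative, and the median was -0.06. GPD2, the mitochondrial glycerol-3-phosphate dehydrogenase, passes electrons to ubiquinone without complex I. It had 5.32, 5.63 and 6.995 FPKM in siPOU2F1 and 12.3, 13.0 and 11.3 FPKM in sicontrol, every knockdown library being below every control. Its log2 fold change was -0.98 (SE 0.14, adjusted p = 0.0320). Leaving out any single library other than siPOU2F1 replicate 3 put the adjusted p between 0.0968 and 0.198, and leaving out siPOU2F1 replicate 3 gave 0.00572. GOT1, an aspartate aminotransferase of the malate-aspartate shuttle, had -0.63 (adjusted p = 0.156), and NNT, the proton-translocating transhydrogenase, 0.28 (adjusted p = 0.329). On leaving out siPOU2F1 replicate 3 the median of the list was -0.04 and 3 of the 12 were called, all lower: GPD2, GOT1 (-0.79, adjusted p = 0.0163) and SLC25A13 (-0.43, adjusted p = 0.0460), an aspartate-glutamate carrier. With all 6 libraries the log2 fold change of SLC25A13 was -0.09 (limma, adjusted p = 0.866) and its groups overlapped. It had 20.3, 21.1 and 42.0 FPKM in siPOU2F1 and 26.3, 32.1 and 26.0 FPKM in sicontrol. With library weights 6 were called.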

How the data were processed

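FPKM values were deposited by the authors in 1 table for each of 6 polyA libraries, made from 2 µg of total RNA with a directional kit, per the labels' protocols. StringTie 2.1.2, Bowtie2 2.2.5, HISAT2 2.0.4 and hg38 are named, without roles, in the submitters' processing notes. No source used here gives the annotation, strand setting or treatment of multiply mapped reads. Absolute depth is unknown because the tables hold no counts of reads. Low values gave depths of 0.78 to 0.97 relative to sicontrol replicate 1, resting on 8 to 13 genes per library. A nuclear copy of mitochondrial DNA can draw reads from a mitochondrial gene (22 to 38 annotated copies per member).

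From the deposited values log2(FPKM + 0.5) was computed for 20474 annotated genes, without further scaling. Assembled transcripts (2308 features) were left out. Those averaging 1 FPKM or more, 11831 genes, were tested in R 4.3.3 (limma 3.58.1, group as the only term, variance trended on the mean). Adjustment was Benjamini-Hochberg over all of them, and the fit was tested on simulated data. The simulated noise was independent between genes and libraries and no library was set apart. It therefore cannot tell how the fit behaves with a library such as siPOU2F1 replicate 3. Alternatives covered the pseudocount, filter, scaling, trend, library weights, replicate block and each library left out. Python 3.11.15, pandas 2.3.3 and matplotlib 3.10.9 were used. Positions come from GENCODE release 29.

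The members and lists were chosen with earlier results of these data known. Named genes are POU2F1, called members, the 5 nuclear members with the highest and the 5 with the lowest fold change, the nuclear core subunits, all 7 mitochondrial members, and from each list called genes and up to 3 with the lowest p. For reasons outside the data 1 nuclear member is not reported here and enters no count, median or sum of members. Other names were chosen after their values were seen. MT-RNR1 and MT-RNR2 are not analysed here.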

Additional observations from a re-analysis of the deposited data

How the results depend on the processing

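The nuclear median stayed between 0.07 and 0.17 over all alternatives, and the mitochondrial median between -0.044 and 0.16 with a library left out, at -0.031 under quantile normalization and 0.085 under library weights. The count of called genes, 147, was 72 with no filter, 93 without the trend, 5963 with library weights and 0 with the replicate block. The count of called nuclear members, 0, was 1 with a 5 FPKM filter (NDUFB6, adjusted p = 0.0478) and 16 with library weights, where 3 mitochondrial members were called. POU2F1 kept a log2 fold change of -0.99 with no filter (adjusted p = 0.0650) and with the block (adjusted p = 0.297). GPD2 had an adjusted p of 0.0564 with no filter. MT-ND4 came to 0 under quantile normalization. Signs turned for MT-ND6 (-0.031 under quantile normalization) and NDUFS3 (0.64 under library weights, adjusted p = 0.131). The cause was not tested.

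With each library left out in turn, called genes ran from 0 to 2954 (2954 without siPOU2F1 replicate 3, 0 on leaving out its replicate 1 or its replicate 2, and 0, 5 and 9 on leaving out sicontrol replicates 1, 2 and 3), called nuclear members from 0 to 4 and called mitochondrial members from 0 to 2. POU2F1 ran from -1.06 to -0.95, with adjusted p between 0.114 and 0.220 for every library left out other than siPOU2F1 replicate 3 and 0.00982 for that one. Among the members, the ranges that crossed 0 were -0.031 to 0.17 for MT-ND6, -0.044 to 0.16 for MT-ND4L, -0.27 to 1.26 for NDUFB9, -0.18 to 0.23 for NDUFS1, -0.92 to 0.12 for NDUFS3, -0.58 to 0.054 for NDUFB10, -0.16 to 0.076 for NDUFA6, -0.26 to 0.14 for NDUFC2, -0.065 to 0.088 for NDUFC1 and -0.0092 to 0.30 for NDUFB3. Fits with 1 library left out of 3 rest on fewer samples.

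The groups share replicate numbers, but whether the numbers pair the libraries is not known. Residuals of same-numbered libraries correlated at 0.13, -0.54 and -0.51, and siPOU2F1 replicate 3 correlated best with sicontrol replicate 2, at 0.64. Residuals were taken from each group's own mean, so these correlations are not independent of each other and cannot decide it. With the replicate block 0 genes were called and the adjusted p of GPD2 was 0.297. Absolute depth is unknown, so the precision of low members such as NDUFA3 cannot be given.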
